A study of Caenorhabditis elegans with 24 samples.

Results

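The 40 genes described here carry out meiosis, germ granule assembly, DNA replication and germline cell division in *Caenorhabditis elegans*. They were chosen by gene symbol, by a rule that uses no measured value, but with earlier results of these data known. All 40 were found among the 25616 genes of the array, and all 40 passed the filter on dim probes at both times, out of 22067 genes tested at 6 h and 23058 genes tested at 20 h. By role they comprise 5 germ granule genes (*pgl-1*, *pgl-3*, *glh-1*, *glh-2* and *glh-4*), 6 genes of cohesin and the chromosome axis (*him-1*, *rec-8*, *him-3*, *htp-1*, *htp-2* and *htp-3*), and 4 genes of the synaptonemal complex central region (*syp-1* to *syp-4*). A further 4 encode pairing center proteins (*him-8*, *zim-1*, *zim-2* and *zim-3*), 3 act in meiotic recombination (*spo-11*, *msh-5* and *him-17*), 9 in DNA replication (*mcm-2* to *mcm-7*, *pcn-1*, *rnr-1* and *rnr-2*), 3 are M-phase cyclins and their kinase (*cdk-1*, *cyb-1* and *cyb-3*), and 6 are germline RNA-binding regulators (*gld-1*, *fbf-1*, *fbf-2*, *oma-1*, *oma-2* and *mex-3*).

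Whole adult worms were compared in 4 groups, namely *pqm-1(ok485)* mutants with CoCl2, wild-type N2 worms with CoCl2, untreated *pqm-1(ok485)* mutants, and untreated N2 worms. CoCl2, a hypoxia mimetic, was given at 5 mM from early day 1 of adulthood for 6 h or 20 h, and *ok485* is a loss-of-function allele of the zinc finger transcription factor gene *pqm-1*. Total RNA was amplified and hybridized to 24 two-color Agilent arrays, with 3 biological replicates for each of 4 comparisons per time, and every value below is a log2 ratio of the group named first over the group named second. All worms came from hypochlorite-synchronized cultures, and the study's methods describe slower development in *pqm-1* mutants. In whole worms, fewer germ cells and less RNA per germ cell cannot be told apart.

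In the adult hermaphrodite gonad, germ cells divide mitotically at the distal end, enter meiotic prophase, pair and synapse their homologs, and mature as oocytes one by one at the proximal end. Homologs are held together by the synaptonemal complex, which forms between chromosome axes built on cohesin and HORMA-domain proteins, and each chromosome is paired through a pairing center bound by a zinc finger protein. Germ granules (P granules) are condensates of RNA and protein at the nuclear envelope of germ cells, and much of germline gene expression is set after transcription by RNA-binding proteins.

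The arrays had 69.0% to 92.1% of their probes above background in 1 channel or both (median 85.9%), and replicates correlated across genes with r of 0.674 to 0.961 (genes are not independent replicates). The members were read by 84 probes, 82 of which were above background in both channels on all 24 arrays, 25 members had 1 probe, and 5 array values of members were missing against 955 present. The mutated gene, *pqm-1*, was -2.44, -2.27 and -2.09 on the 3 arrays between the untreated strains at 6 h (mutant over wild type), and averaged -1.46 between them at 20 h. Under CoCl2 the probes of *pqm-1* did not separate the strains, with -0.04 ± 0.12 at 6 h and 0.19 ± 0.16 at 20 h (SE, n = 3 each), and where its probes lie relative to the *ok485* lesion was not checked here. With CoCl2 *pqm-1* was higher by 2.69 in the mutant and 0.77 in wild type at 6 h, and by 3.16 in the mutant and 1.98 in wild type at 20 h, so it checks the labels of the untreated RNAs and not those of the treated. In each comparison 2 arrays had one dye order and 1 the other, so a dye bias does not fully cancel.

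A gene was called at a Benjamini-Hochberg adjusted p below 0.01 over all genes tested, from limma. At 6 h the calls lay between the strains, with 0 in the CoCl2 response of either. With CoCl2, 13 of 40 members were lower in *pqm-1(ok485)* than in wild type and 0 were higher, where 5.43% of all genes tested were called lower and 14.2% higher (19.6% in all). Without CoCl2, 4 members were lower in *pqm-1(ok485)* and 0 higher, where 3.22% of all genes were lower and 10.5% higher. No member passed in treated against untreated *pqm-1(ok485)* mutants at 6 h, where 10.9% of all genes did (6.03% higher, 4.83% lower), 13 members (1 higher, 12 lower) had an unadjusted p below 0.05 in limma against 28.2% of all genes, and significance analysis of microarrays (SAM) called 0. None passed in treated against untreated wild type at 6 h either, where 4.25% of all genes did (2.57% higher, 1.68% lower), 1 member (higher) had an unadjusted p below 0.05 against 13% of all genes, and SAM called 0. The largest ratio there was that of *mcm-6* (0.15, adjusted p = 0.185).

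At 20 h the calls lay mainly in the response of the mutant. In treated against untreated *pqm-1(ok485)* mutants, 15 members were lower and 1 higher, where 12.4% of all genes were lower and 22.8% higher (35.2% in all). The members' total there was close to the share over all genes, and only the lower count was above its share. In treated against untreated wild type 1 member was lower and 0 higher, where 6.93% and 8.99% of all genes were. With CoCl2, 5 members were lower and 1 higher in *pqm-1(ok485)* than in wild type, where 13.6% of all genes were lower and 23.7% higher, so the lower count was close to the share over all genes. No member separated the untreated strains at 20 h, where 4.33% of all genes were called (3.07% higher, 1.26% lower), 5 members (all lower) had an unadjusted p below 0.05 in limma against 18.2% of all genes, and SAM called 0. The largest ratio there was that of *mcm-3* (-0.28, adjusted p = 0.256).

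The sign on single arrays gave a fuller count. At 6 h, 31 of 40 members were below 0 on all 3 arrays and 1 was above 0 on all 3 between the treated strains. Of all genes, 25.8% lay below and 29.4% above there. Between the untreated strains at 6 h 22 were below and 1 above, where 21.8% of all genes were below. In the CoCl2 response of the mutant 18 were below and 2 above at 6 h (26% and 23.1% of all genes), and 25 were below and 2 above at 20 h (34.4% and 36% of all genes). In the response of wild type at 6 h only 2 were below and 4 above (15.4% and 16.2% of all genes). At 20 h 20 of the 39 members with 3 values were below and 5 above between the treated strains (34.4% and 39.7% of all genes), and 23 of 38 were below and 0 above between the untreated strains (22.3% and 24.8% of all genes). So the untreated strains at 20 h, with no member called, still had most members below 0 on every array, at small ratios (-0.28 to 0.10).

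Over the 8 comparisons 17 of the 40 members were never called, 22 were called lower at least once, and 2 (*htp-1* and *syp-1*) were called higher once. The median log2 ratio of the 40 members was -0.11 in the CoCl2 response of *pqm-1(ok485)* at 6 h, 0.01 in that of wild type, -0.27 between the treated strains and -0.18 between the untreated strains. At 20 h it was -0.30 in the response of the mutant, -0.10 in that of wild type, -0.17 between the treated strains and -0.11 between the untreated strains, against medians over all genes between -0.01 and 0.01 in the 8 comparisons. With each array centered on its median in place of loess, the members' medians at 20 h became 0.12 between the treated and 0.07 between the untreated strains, so the direction of both depended on the scaling.

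**Figure D1:**
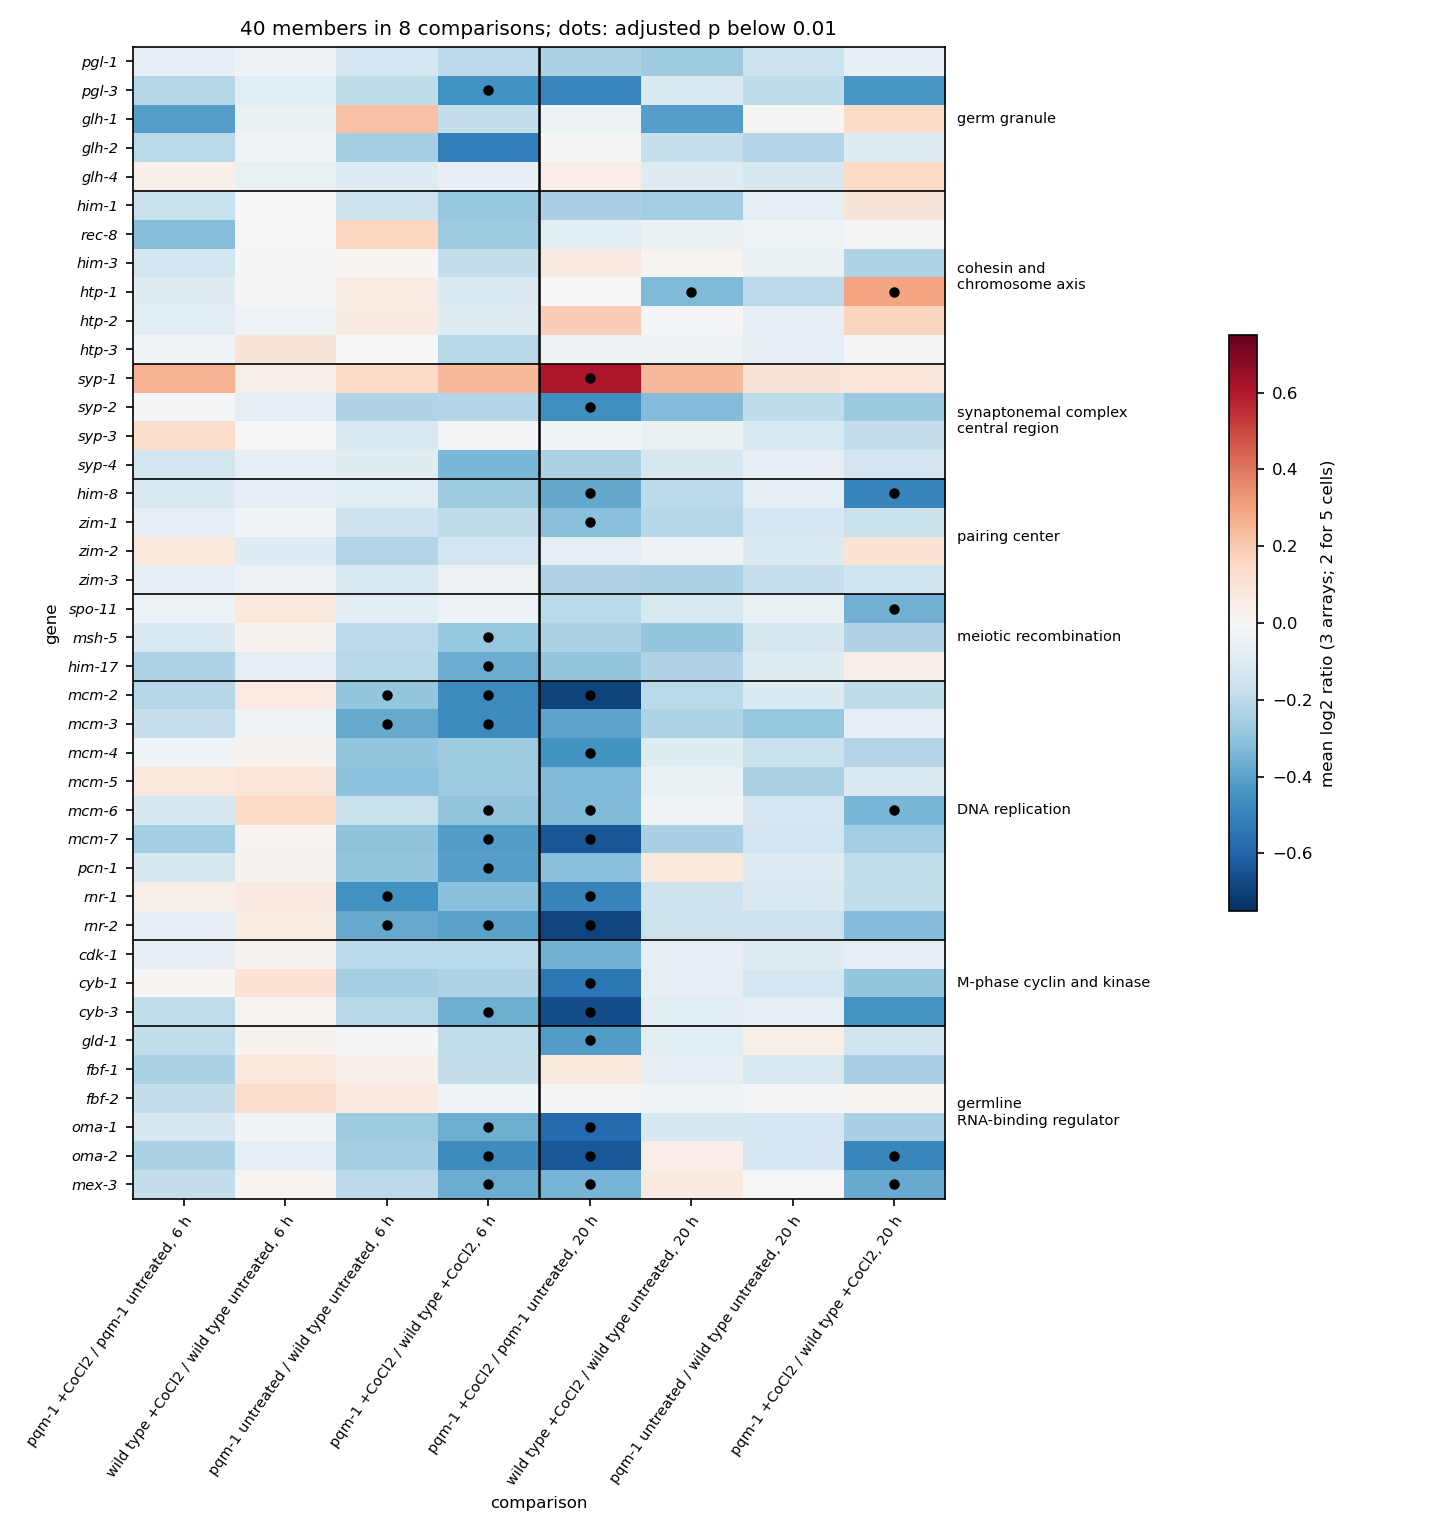
Heat map of the mean log2 ratio (color, 3 arrays per cell) of the 40 member genes (rows, by role) in the 4 comparisons at 6 h and the 4 at 20 h (columns). Dots mark an adjusted p below 0.01 (limma), and the dots gather in the DNA replication rows, 6 of 9 in treated mutants against treated wild type at 6 h and 6 of 9 in the CoCl2 response of *pqm-1(ok485)* at 20 h.

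The DNA replication genes, the largest role group with 9 genes, had the most calls of any role group. They encode the 6 subunits of the MCM helicase that unwinds DNA at replication forks (*mcm-2* to *mcm-7*), the sliding clamp PCNA (*pcn-1*), and the large and small subunits of ribonucleotide reductase, which makes deoxyribonucleotides (*rnr-1* and *rnr-2*). Between the untreated strains at 6 h, *rnr-1* was -0.29, -0.45 and -0.61 on the 3 arrays, *mcm-3* was -0.30, -0.40 and -0.43, and *rnr-2* was -0.28, -0.37 and -0.48. All these values lay below 0, and all 27 values of the 9 genes did so in this comparison, where 21.8% of all genes lay below 0 on all 3 arrays. In the fit *rnr-1* was 1.37-fold lower in untreated mutants than in untreated wild type (-0.45 ± 0.10, SE, adjusted p = 0.00471 from limma), *mcm-3* 1.3-fold (-0.38 ± 0.09, adjusted p = 0.00808), *rnr-2* 1.3-fold (-0.38 ± 0.08, adjusted p = 0.00335), and the fourth gene called, *mcm-2*, 1.22-fold (-0.29 ± 0.06, adjusted p = 0.0031). The other 5 lay between -0.31 and -0.16 and did not pass. Of these 4 calls only that of *rnr-1* remained without replicate 1, none without replicate 2, and only that of *mcm-2* without replicate 3. In that last fit *mcm-4* and *mcm-5* passed in addition as lower, and *glh-1* as higher, in the mutant. None passed with median centering in place of loess, and with the replicate number as a block 1 member passed.

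With CoCl2 at 6 h the same direction was seen in *pqm-1(ok485)* against wild type. The ratio of *mcm-2* was -0.50, -0.50 and -0.43 on the 3 arrays, and that of *mcm-3* was -0.54, -0.46 and -0.42. Again all 27 values of the replication genes were below 0, where 25.8% of all genes lay below 0 on all 3 arrays. The fitted ratio was -0.48 ± 0.06 for *mcm-2* (1.39-fold lower, adjusted p = 5.26e-05 from limma) and -0.47 ± 0.09 for *mcm-3* (1.39-fold lower, adjusted p = 0.00138). Also lower were *mcm-7* (-0.42), *pcn-1* (-0.41), *rnr-2* (-0.40) and *mcm-6* (-0.30), while *rnr-1* (-0.31), *mcm-4* and *mcm-5* (-0.27 each) missed the threshold, with adjusted p of 0.0162 to 0.0287. The median of the 9 genes was -0.40 with CoCl2 and -0.30 without, and none of the 9 differed between these comparisons at an adjusted p below 0.01, the widest gap being that of *mcm-2* (-0.19, 95% interval -0.37 to -0.01, adjusted p = 0.265). Of the 13 calls over all members, 2, 3 and 10 remained without replicate 1, 2 or 3. The count was 7 with the replicate number as a block and 0 with median centering. The call of *mcm-2* held without any 1 array.

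After 20 h CoCl2 lowered replication genes in the mutant. In treated against untreated *pqm-1(ok485)* mutants, *mcm-2* was -0.43, -0.88 and -0.78 on the 3 arrays, and *rnr-2* was -0.67, -0.58 and -0.82. The same genes in treated against untreated wild type were -0.47, -0.30 and 0.17 (*mcm-2*) and -0.29, -0.43 and 0.24 (*rnr-2*). So all arrays of the mutant lay below 0, where those of wild type fell on both sides, replicate 3 being the one above 0. That wild-type array had the fewest probes above background of all 24 (69.0%, against 86.4% and 86.6% on the others of the comparison), and its part in the contrast between the strains was not tested beyond leaving it out. In the fit *mcm-2* was 1.62-fold lower (-0.70 ± 0.12, adjusted p = 0.000607 from limma) and *rnr-2* 1.61-fold lower (-0.69 ± 0.12, adjusted p = 0.000497) in the mutant, against -0.20 (*mcm-2*, adjusted p = 0.274) and -0.16 (*rnr-2*, adjusted p = 0.38) in wild type. Without replicate 3 the wild-type ratios were -0.39 for *mcm-2* (adjusted p = 0.0385) and -0.36 for *rnr-2* (adjusted p = 0.0345). Also called in the mutant were *mcm-7* (-0.64), *rnr-1* (-0.50), *mcm-4* (-0.45) and *mcm-6* (-0.33), while *mcm-3* (-0.40), *mcm-5* (-0.33) and *pcn-1* (-0.32) did not pass. Of the replication values, 27 of 27 were below 0 in the mutant, where 34.4% of all genes lay below 0 on all 3 arrays, and 19 of 27 in wild type. Of the 16 calls over all members, 13, 11 and 10 remained without replicate 1, 2 or 3 of the mutant comparison, and the count was 9 with median centering.

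Between the strains at 20 h 1 replication gene was called. It was *mcm-6* with CoCl2, at -0.42, -0.38 and -0.22 on the 3 arrays of treated mutants against treated wild type (1.27-fold lower, -0.34 ± 0.08, adjusted p = 0.00322 from limma). The medians of the 9 genes were -0.19 with CoCl2 and -0.15 without, and the second became 0.06 with median centering. Several probes read *mcm-2* (6 probes), *rnr-2* (6) and *pcn-1* (6), and the 6 probes of *mcm-2* spanned only -0.73 to -0.67 in the response of the mutant at 20 h.

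**Figure D2:**
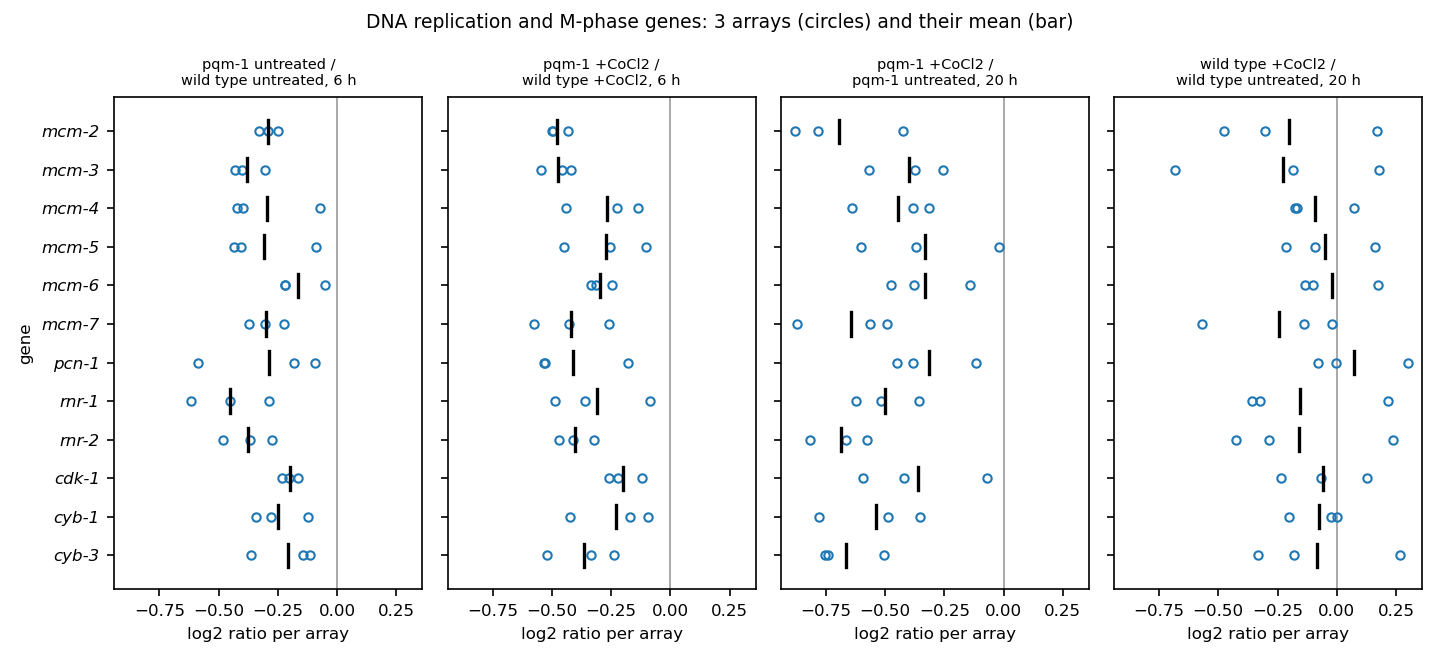
Log2 ratio on each array (points, 3 per gene and comparison) of the 9 DNA replication and 3 M-phase genes in 4 comparisons, with the line at 0 for no difference. All points of the 12 genes lie below 0 in the 3 comparisons of the mutant, while in wild type with CoCl2 at 20 h the replicate 3 array lifts most genes above 0 (*rnr-2* at 0.24, *mcm-2* at 0.17).

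The M-phase genes encode the cyclin-dependent kinase CDK-1 and the B-type cyclins CYB-1 and CYB-3, which drive entry into and progress through division. In the CoCl2 response of *pqm-1(ok485)* at 20 h, *cyb-3* was -0.51, -0.75 and -0.74, and *cyb-1* was -0.49, -0.35 and -0.78. Treated against untreated wild type gave -0.18, -0.33 and 0.27 for *cyb-3*, so its arrays spanned 0 while those of the mutant did not. Both cyclins fell in the mutant, *cyb-3* 1.59-fold (-0.67 ± 0.13, adjusted p = 0.00122 from limma) and *cyb-1* 1.45-fold (-0.54 ± 0.08, adjusted p = 0.000259), whereas *cdk-1* (-0.36, adjusted p = 0.0117) did not pass. In wild type the 3 genes were between -0.08 and -0.06. Without replicate 3, the wild-type array with the fewest probes above background, they were at -0.26 (*cyb-3*), -0.15 (*cdk-1*) and -0.01 (*cyb-1*). Between the treated strains at 6 h *cyb-3* was 1.29-fold lower in *pqm-1(ok485)* (-0.52, -0.33 and -0.24 on the arrays, adjusted p = 0.0038), and all 9 values of the group were below 0 there, as they were between the untreated strains at 6 h. The call of *cyb-3* at 20 h was lost without replicate 2 or replicate 3 (adjusted p of 0.0115 and 0.0103).

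Among the germline RNA-binding regulators, *oma-1*, *oma-2* and *mex-3* were called lower between the treated strains at 6 h and in the CoCl2 response of *pqm-1(ok485)* at 20 h, and *gld-1* in that response alone. The stem cell genes *fbf-1* and *fbf-2* did not pass. *oma-1* and *oma-2* encode zinc finger proteins needed for oocyte maturation, *mex-3* a KH-domain protein that represses translation in oocytes and early embryos, *gld-1* a translational repressor that promotes meiotic entry and progression, and *fbf-1* and *fbf-2* the PUF-family repressors that maintain germline stem cells. In treated mutants against treated wild type, *oma-2* was -0.74, -0.49 and -0.24 at 20 h and -0.56, -0.45 and -0.41 at 6 h. *mex-3* was -0.55, -0.43 and -0.15 at 20 h and -0.51, -0.37 and -0.23 at 6 h. All 12 of these values lay below 0. In *pqm-1(ok485)* *oma-2* was 1.4-fold lower at 20 h (-0.49 ± 0.11, adjusted p = 0.00316 from limma) and 1.39-fold lower at 6 h (-0.47 ± 0.08, adjusted p = 0.000719), and *mex-3* was 1.3-fold lower at 20 h (-0.38 ± 0.09, adjusted p = 0.00432) and 1.29-fold lower at 6 h (-0.37 ± 0.08, adjusted p = 0.0033).

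The 4 probes of *mex-3* at 20 h spread over -0.58 to 0.04, the only called member with probes on both sides of 0. *oma-1* did not pass at 20 h (-0.24, adjusted p = 0.12) and passed at 6 h (-0.37). In the CoCl2 response at 20 h, *oma-2* was -0.59, -0.43 and -0.88 in the mutant, and -0.18, 0.05 and 0.27 in wild type. The arrays of the mutant and of wild type did not overlap, but the share of all genes without overlap is not given here. The test of the difference between these responses, given below, did not pass for *oma-2*. With CoCl2 the mutant had 1.55-fold less *oma-2* (-0.63, adjusted p = 0.000549 from limma), 1.5-fold less *oma-1* (-0.58, adjusted p = 0.00206), 1.34-fold less *gld-1* (-0.42, adjusted p = 0.00161) and 1.27-fold less *mex-3* (-0.35, adjusted p = 0.00728). In wild type these genes were at 0.05 (*oma-2*), -0.12 (*oma-1*), -0.09 (*gld-1*) and 0.06 (*mex-3*), and none was called. Without replicate 3, the wild-type array with the fewest probes above background, they were at -0.06 (*oma-2*), -0.30 (*oma-1*), -0.12 (*gld-1*) and -0.03 (*mex-3*). *fbf-1* and *fbf-2* lay between -0.24 and 0.13 in all 8 comparisons and passed in none, and since they are close paralogs a probe of one may also read the other, which was not checked here. The group's median between the treated strains at 20 h, -0.24, became 0.10 with median centering.

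The germ granule genes gave 1 call. PGL-1 and PGL-3 are scaffold proteins of P granules, and GLH-1, GLH-2 and GLH-4 are Vasa-like DEAD-box helicases. *pgl-3* was -0.68, -0.55 and -0.13 in treated mutants against treated wild type at 6 h (1.37-fold lower, -0.45 ± 0.11, adjusted p = 0.00785 from limma). All 3 arrays were below 0, though replicate 3 was near it. *glh-2* had the larger ratio in the same comparison, -0.51, but its arrays were -0.92, -0.73 and 0.11 and it did not pass (adjusted p = 0.0959). In the CoCl2 response of the mutant at 6 h *glh-1* was -0.45, -0.29 and -0.50 (-0.41, adjusted p = 0.0134), and in wild type at 20 h it was -0.26, -0.81 and -0.17 (-0.41, adjusted p = 0.0522). The single probe of *glh-1* was saturated on 3 of the 24 arrays. *pgl-1* stayed between -0.26 and -0.04 and *glh-4* between -0.12 and 0.15 over the 8 comparisons, with no call.

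Genes of cohesin and the chromosome axis gave calls for 1 gene, *htp-1*, with group medians between -0.19 and 0.05 in the 8 comparisons. HIM-1 is the SMC1 subunit of cohesin, REC-8 a meiotic kleisin that closes the cohesin ring, and HIM-3, HTP-1, HTP-2 and HTP-3 are HORMA-domain proteins of the axis. At 20 h *htp-1* was -0.04, -0.03 and 0.06 in treated against untreated mutants, and -0.50, -0.32 and -0.16 in wild type. In treated mutants against treated wild type at 20 h it was 0.24, 0.37 and 0.28. In the fit *htp-1* was -0.00 in the response of the mutant (adjusted p = 0.976 from limma) and 1.26-fold lower with CoCl2 in wild type (-0.33 ± 0.06, adjusted p = 0.00241), the only member called there, and it was 1.23-fold higher in treated mutants than in treated wild type (0.30 ± 0.06, adjusted p = 0.00216).

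The paralog *htp-2* was not called in these comparisons (0.18 in the mutant, -0.02 in wild type and 0.17 between the treated strains), and whether the probe of either gene also reads the other was not checked. The lower *htp-1* of treated wild type passed without replicate 3 (adjusted p = 0.00112) and not without replicate 1 (adjusted p = 0.0284) or 2 (adjusted p = 0.0154). For the untreated strains at 6 h the dye order went with the sign in this group. *rec-8* was 0.37, 0.42 and -0.31 and *htp-3* 0.28, 0.16 and -0.44, replicate 3 being the array of the other dye order, and the group's median was 0.27, 0.13 and -0.30 on the 3 arrays. Over the 40 members, 12 had the opposite sign on that array in this comparison, and from 5 to 24 did so in the others. The part of dye bias in these values was not tested beyond the fit with a dye term, which called 10 members lower there in place of 4.

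In the central region of the synaptonemal complex, 2 of the 4 genes moved in opposite directions. SYP-1, SYP-2, SYP-3 and SYP-4 together bridge the axes of paired homologs. *syp-1* was 0.76, 0.28 and 0.78 in treated against untreated *pqm-1(ok485)* mutants at 20 h, and 0.39, 0.17 and 0.16 in wild type. *syp-2* was -0.65, -0.17 and -0.55 in the mutant and -0.39, -0.28 and -0.31 in wild type. Every array put *syp-1* above 0 and *syp-2* below 0. In the mutant *syp-1* was 1.52-fold higher (0.61 ± 0.09, adjusted p = 0.000174 from limma), the only member called higher there, and *syp-2* 1.38-fold lower (-0.46 ± 0.08, adjusted p = 0.000529). In wild type the ratios were 0.24 for *syp-1* (adjusted p = 0.075) and -0.33 for *syp-2* (adjusted p = 0.0107). The probes of *syp-1* gave 0.57 and 0.65, its call held without any 1 array, and it was the only member with a positive ratio in all 8 comparisons (0.05 to 0.61). *syp-3* and *syp-4* passed in none, the largest being *syp-4* at -0.35 in treated mutants against treated wild type at 6 h (adjusted p = 0.0111).

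The pairing center genes encode zinc finger proteins that bind the pairing center of the X chromosome (HIM-8) or of autosomes (ZIM-1, ZIM-2 and ZIM-3). *him-8* was -0.60, -0.51 and -0.37 in treated mutants against treated wild type at 20 h, and -0.35, -0.32 and -0.12 at 6 h. In the CoCl2 response of the mutant at 20 h it was -0.44, -0.24 and -0.46. The arrays of all these comparisons were below 0. *him-8* had the largest ratio of any member between the treated strains at 20 h (1.41-fold lower in *pqm-1(ok485)*, -0.49 ± 0.07, adjusted p = 0.000114 from limma, kept without any 1 array) and was 1.3-fold lower with CoCl2 in the mutant (-0.38 ± 0.07, adjusted p = 0.000751), but it did not pass at 6 h (-0.27, adjusted p = 0.0186). *zim-1* fell with CoCl2 in the mutant at 20 h (-0.31, adjusted p = 0.00241), while *zim-3* (-0.22, adjusted p = 0.0102) and *zim-2* (-0.07) did not pass. All 12 values of the group were below 0 between the untreated strains at 20 h, where 22.3% of all genes lay below 0 on all 3 arrays, at a median of -0.12 that became 0.03 with median centering.

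Of the recombination genes, SPO-11 makes the double-strand breaks that start meiotic recombination, HIM-17 is a chromatin-associated factor needed for break formation, and MSH-5 is a MutS homolog needed for crossovers. *spo-11* was -0.37, -0.34 and -0.37 in treated mutants against treated wild type at 20 h, and 0.22, -0.01 and -0.34 at 6 h. *him-17* was -0.06, -0.01 and 0.19 at 20 h and -0.36, -0.41 and -0.35 at 6 h. In *pqm-1(ok485)* against wild type *spo-11* was called at 20 h (1.28-fold lower, -0.36 ± 0.08, adjusted p = 0.00217 from limma) and *him-17* at 6 h (1.29-fold lower, -0.37 ± 0.06, adjusted p = 0.000785). For *spo-11* the difference between the times did not pass (-0.32, adjusted p = 0.118). *msh-5* was -0.23 at 20 h (adjusted p = 0.033), and -0.22, -0.31 and -0.33 on the arrays at 6 h (1.22-fold lower, adjusted p = 0.00523). In the CoCl2 responses none of the 3 passed, the largest being *him-17* (-0.30, adjusted p = 0.0182) in the mutant and *msh-5* (-0.29, adjusted p = 0.0184) in wild type at 20 h.

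For the treated strains at 20 h, 2, 1 and 4 of the 6 calls over the 40 members remained without replicate 1, 2 or 3. The count was 0 with median centering, under which the medians of the 8 groups lay between -0.21 and 0.37. Of the 6 members only *him-8* kept its call without each array.

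**Figure D3:**
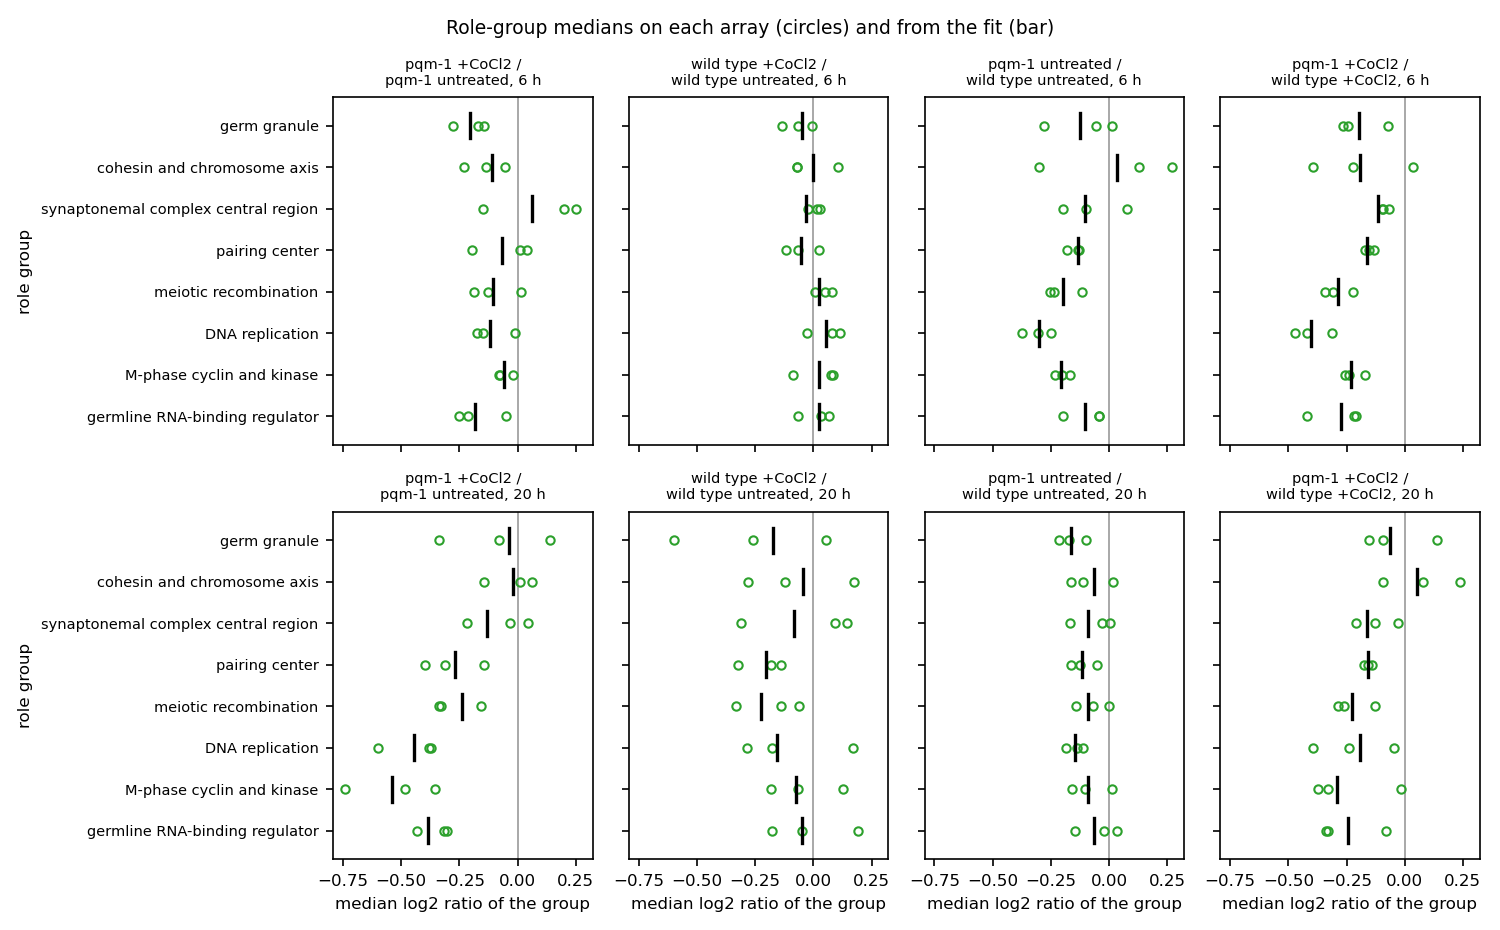
Median log2 ratio of each role group (8 panels) in the 8 comparisons, with circles for the median on each of 3 arrays and a bar for the median of the fitted ratios. The bars of the DNA replication group stand at -0.40 between the treated strains at 6 h and at -0.45 in the CoCl2 response of the mutant at 20 h, while those of cohesin and the chromosome axis stay between -0.19 and 0.05.

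Whether CoCl2 acted differently in the strains was tested as the difference of 2 comparisons. At 20 h the response of *pqm-1(ok485)* minus that of wild type gave no member past the threshold, where 8.87% of all genes passed (8.13% higher, 0.737% lower), 15 members (2 higher, 13 lower) had an unadjusted p below 0.05 in limma against 27.7% of all genes, and SAM called 0. The largest differences were those of *oma-2* (-0.68, 95% interval -1.03 to -0.34, adjusted p = 0.0112), *cyb-3* (-0.58, -0.99 to -0.18, adjusted p = 0.0524) and *rnr-2* (-0.53, -0.90 to -0.16, adjusted p = 0.0538). For *mcm-2* the difference was -0.49 (-0.88 to -0.11, adjusted p = 0.0826), and the medians were -0.35 over the replication genes, all 9 below 0, and -0.46 over the M-phase genes. On the other side *syp-1* was 0.36 (0.08 to 0.65, adjusted p = 0.0826) and *htp-1* 0.33 (0.13 to 0.52, adjusted p = 0.0282). So the calls made in the mutant and not in wild type at 20 h were not shown to differ between the strains at this threshold.

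The same difference formed as the ratio between the treated strains minus that between the untreated strains gave values nearer 0 or above it for the replication genes named here. It was -0.09 for *mcm-2*, -0.16 for *rnr-2* and 0.21 for *mcm-3*, and the median was -0.09 over the replication genes, 7 of 9 below 0, and -0.16 over the M-phase genes. For *oma-2* it was -0.36, for *cyb-3* -0.37 and for *syp-1* -0.00. By this way 2 members passed, *htp-1* (0.49, adjusted p = 0.00243 from limma) and *him-8* (-0.42, adjusted p = 0.00902). The 8.87% of all genes given above belongs to the first way. The share by this way is not given here, so this count cannot be set against it. With the first way but without replicate 3 of wild type, the difference was -0.31 for *mcm-2* and -0.57 for *oma-2* (adjusted p = 0.0461), and the median of the replication genes was -0.27. By the first way the members' median difference, -0.11, became 0.03 with median centering.

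At 6 h the difference was taken between the strain comparisons with and without CoCl2. No member passed, where 3.03% of all genes did (1.69% higher, 1.33% lower), and SAM called 0. In limma 3 members (all lower) had an unadjusted p below 0.05, against 17.4% of all genes. The largest were *rec-8* (-0.43, 95% interval -0.85 to -0.01, adjusted p = 0.267), *glh-1* (-0.39, -0.71 to -0.08, adjusted p = 0.156) and *glh-2* (-0.27, adjusted p = 0.752). For *rnr-2* it was -0.03 (-0.26 to 0.21). Without replicate 3 of the untreated comparison at 6 h *glh-1* passed, and without replicate 2 of the mutant response at 20 h *syp-1* passed in the difference at 20 h.

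The CoCl2 response of the mutant was lower at 20 h than at 6 h for 4 members and higher for 0. Of all genes, 2.82% were called lower and 14.1% higher (16.9% in all). These were *rnr-2*, *cyb-1*, *rnr-1* and *mcm-4*. In treated against untreated mutants *rnr-2* was -0.67, -0.58 and -0.82 at 20 h and -0.13, -0.19 and 0.13 at 6 h. *cyb-1* was -0.49, -0.35 and -0.78 at 20 h and 0.07, 0.15 and -0.18 at 6 h, and *rnr-1* was -0.36, -0.62 and -0.52 at 20 h and -0.11, 0.07 and 0.18 at 6 h. Each lay at -0.35 or below on all 3 arrays at 20 h and spanned 0 at 6 h. The differences (20 h minus 6 h) were -0.62 ± 0.15 for *rnr-2* (adjusted p = 0.00297 from limma), -0.55 ± 0.12 for *cyb-1* (adjusted p = 0.00127), -0.54 ± 0.15 for *rnr-1* (adjusted p = 0.00946) and -0.42 ± 0.11 for *mcm-4* (adjusted p = 0.00635). The 9 replication genes were all below 0 in this difference, at a median of -0.41. Leaving out 1 of the 6 arrays gave counts of 1 to 6, of which at most 2 were among these 4 genes, and the call of *rnr-1* was lost without any 1 of them.

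In wild type no member differed between the times, where 6.06% of all genes did (3.34% higher, 2.72% lower), 3 members (all lower) had an unadjusted p below 0.05 in limma against 22.1% of all genes, and SAM called 0. The largest differences there were those of *glh-1* (-0.36, 95% interval -0.74 to 0.02, adjusted p = 0.258) and *htp-1* (-0.34, -0.55 to -0.12, adjusted p = 0.0376). Between the treated strains 2 members were higher and 0 lower at 20 h than at 6 h, where 12% of all genes were called higher and 6.33% lower. They were *him-17* (0.41 ± 0.11, adjusted p = 0.00849) and *htp-1* (0.40 ± 0.10, adjusted p = 0.00557), and of these calls that of *htp-1* remained without replicate 1 at 6 h and neither without any other of the 6 arrays. Between the untreated strains no member differed between the times, where 0.243% of all genes did (0.0688% higher, 0.174% lower), 2 members (1 higher, 1 lower) had an unadjusted p below 0.05 in limma against 8.78% of all genes, and SAM called 0.

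**Figure D4:**
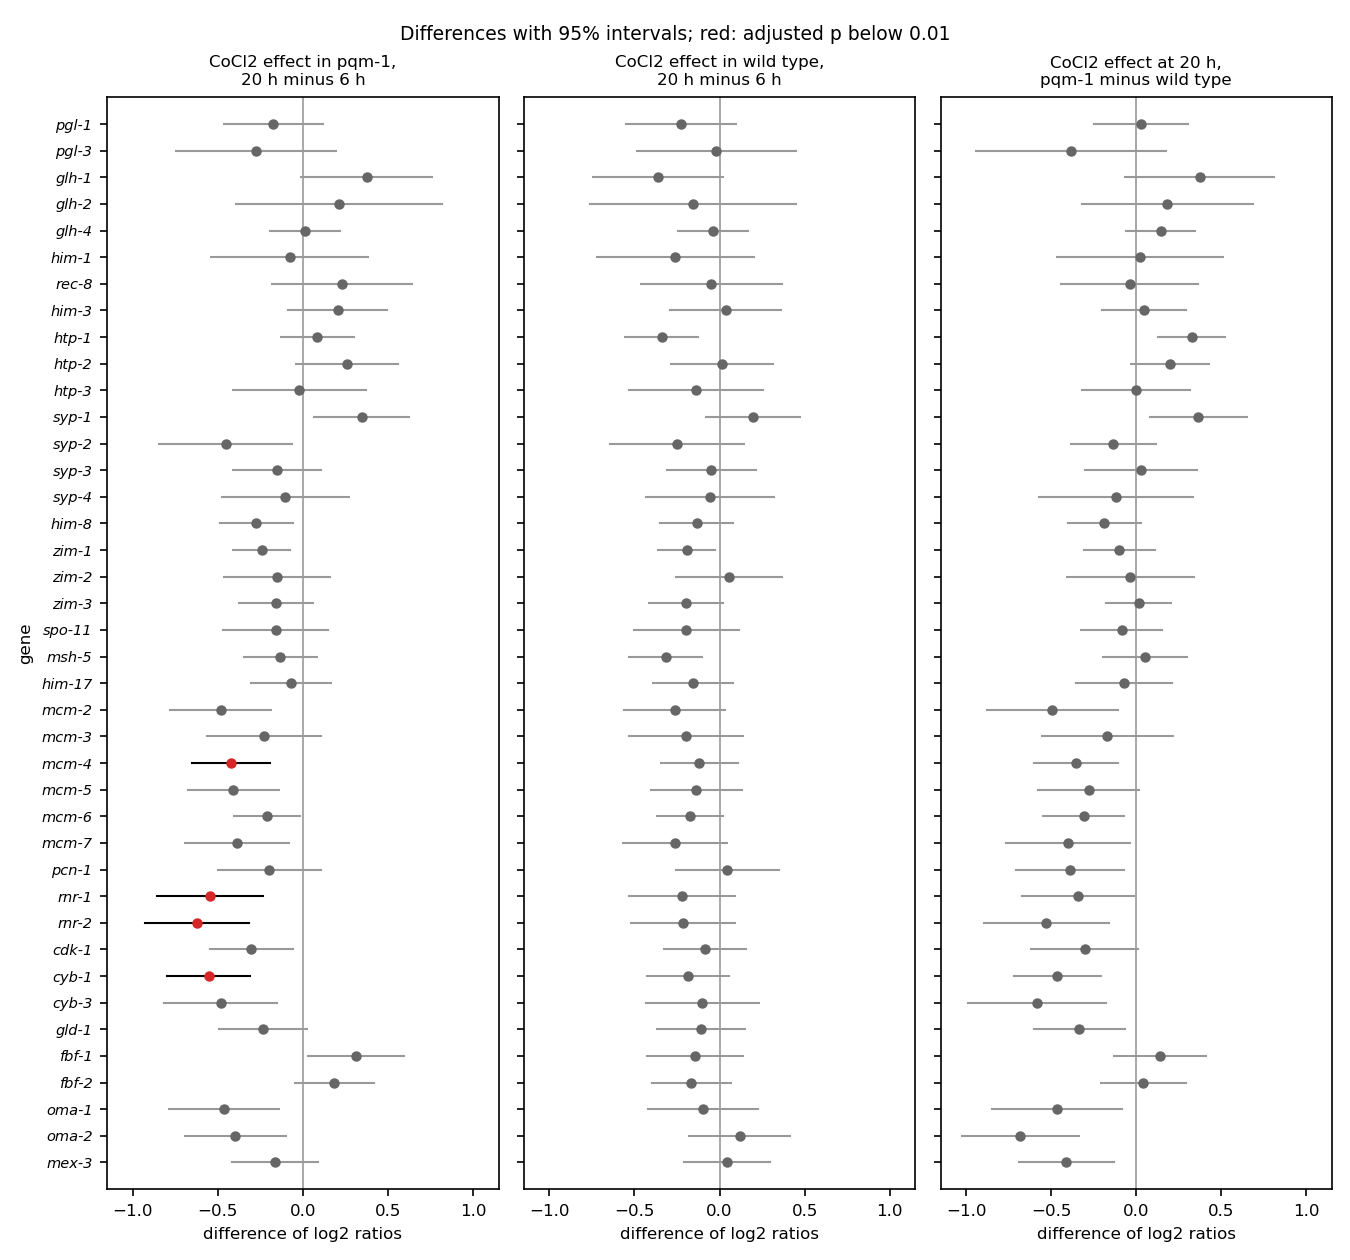
Differences between log2 ratios of the 40 members with 95% intervals, as 20 h minus 6 h in the CoCl2 response of *pqm-1(ok485)*, 20 h minus 6 h in that of wild type, and *pqm-1(ok485)* minus wild type at 20 h, with red for an adjusted p below 0.01 (limma). The red points are *rnr-2*, *cyb-1*, *rnr-1* and *mcm-4*, all in the first panel, between -0.62 and -0.42.

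Other genes of the same pathways were counted in the same fits, from a list of 138 genes of which 134 were tested at 6 h and 131 at 20 h. In treated against untreated *pqm-1(ok485)* mutants at 20 h, 68 were lower and 1 higher (median -0.37), against 10 lower and 1 higher in wild type (median -0.16). Between the treated strains 46 were lower and 1 higher at 20 h (median -0.24), and 44 were lower and 0 higher at 6 h (median -0.25). Between the untreated strains 0 were lower at 20 h (median -0.09) and 11 at 6 h (median -0.15). In the responses at 6 h, 4 were lower in the mutant and 0 in wild type. Of all genes tested, 12.4% were called lower in the response of the mutant at 20 h and 6.93% in that of wild type. The wild-type count at 20 h was close to this share. Between the treated strains 13.6% were lower at 20 h and 5.43% at 6 h. Between the untreated strains 1.26% were lower at 20 h and 3.22% at 6 h. In the responses at 6 h 4.83% were lower in the mutant and 1.68% in wild type.

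The largest of these changes exceeded those of the members. In the response of the mutant at 20 h *evl-18*, which the list counts with the replication genes, was -0.998 ± 0.130 (adjusted p = 5.66e-05 from limma), *meg-4*, a P granule protein gene, was -0.86 ± 0.09 (adjusted p = 9.07e-06), *zhp-2*, a meiotic RING finger gene, was -0.82, and *fog-3*, which promotes sperm fate, was 0.28. *evl-18* was also lower in wild type at 20 h (-0.75), with *psf-1* (-0.36), a GINS subunit, and *cey-3* (-0.35), while the thymidylate synthase gene *tyms-1* was higher there (0.30). Between the treated strains at 20 h *mex-1* (-1.07), a zinc finger protein gene of early embryos, *gld-4* (-0.93), a cytoplasmic poly(A) polymerase gene, and *cdc-25.3* (-0.91), a CDC25 phosphatase gene, had the largest falls and the CDK inhibitor gene *cki-2* the only rise (0.45) in *pqm-1(ok485)*. At 6 h the largest falls there were *cdc-25.3* (-0.56), the germ granule gene *mip-1* (-0.55) and the meiotic crossover gene *xnd-1* (-0.54), and between the untreated strains the dUTPase gene *dut-1* (-0.39), the cold shock domain gene *cey-2* (-0.37) and the PUF family gene *puf-3* (-0.36). *cdc-25.3* (-0.60), *zhp-2* (-0.42) and the germ granule helicase gene *znfx-1* (-0.38) led the response of the mutant at 6 h. In the difference of the responses at 20 h, 2 of these genes passed, both lower, where 0.737% of all genes were lower and 8.13% higher (8.87% in all). They were *sygl-1* (-0.63 ± 0.12), a Notch target in germline stem cells, and *tyms-1* (-0.59 ± 0.10).

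Markers of other cells changed in the same comparisons, also in some with few or no members called. Sperm genes, of which 35 of 37 listed were tested at 6 h and 34 at 20 h, were higher in *pqm-1(ok485)* than in wild type for 33 of 34 with CoCl2 at 20 h (median 1.85, array medians 1.37 to 2.41), for 34 of 35 with CoCl2 at 6 h (median 3.15, 2.59 to 3.49) and for 34 of 35 without CoCl2 at 6 h (median 3.21, 2.66 to 3.59). They were higher with CoCl2 for 34 of 34 in the mutant at 20 h (array medians 2.55 to 2.71) and 26 of 34 in wild type (array medians 0.83 to 3.08), and 26 of 34 were higher between the untreated strains at 20 h, where no member was called. In the CoCl2 responses at 6 h, 0 sperm genes passed (median 0.17 in the mutant and 0.21 in wild type). Oocyte and eggshell genes, 14 in number and including the members *oma-1* and *oma-2*, were lower for 10 between the treated strains at 20 h (median -0.47), 7 between the treated (median -0.44) and 2 between the untreated strains at 6 h (median -0.35), and 10 in the response of the mutant at 20 h (median -0.52), while in wild type at 20 h 2 were higher and 0 lower (median 0.04). On the wild-type array at 20 h on which the members' median was 0.13, replicate 3, the oocyte and eggshell median was 0.29, against -0.04 and -0.07 on the others. The part of sperm and oocyte genes in the values of the members was not tested. For these marker counts and those below, 23.7% of all genes were called higher and 13.6% lower between the treated strains at 20 h. At 6 h it was 14.2% and 5.43%. Between the untreated strains it was 10.5% and 3.22% at 6 h, and 3.07% and 1.26% at 20 h. In the responses it was 22.8% and 12.4% in the mutant and 8.99% and 6.93% in wild type at 20 h, and 6.03% and 4.83% in the mutant at 6 h.

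**Figure D5:**
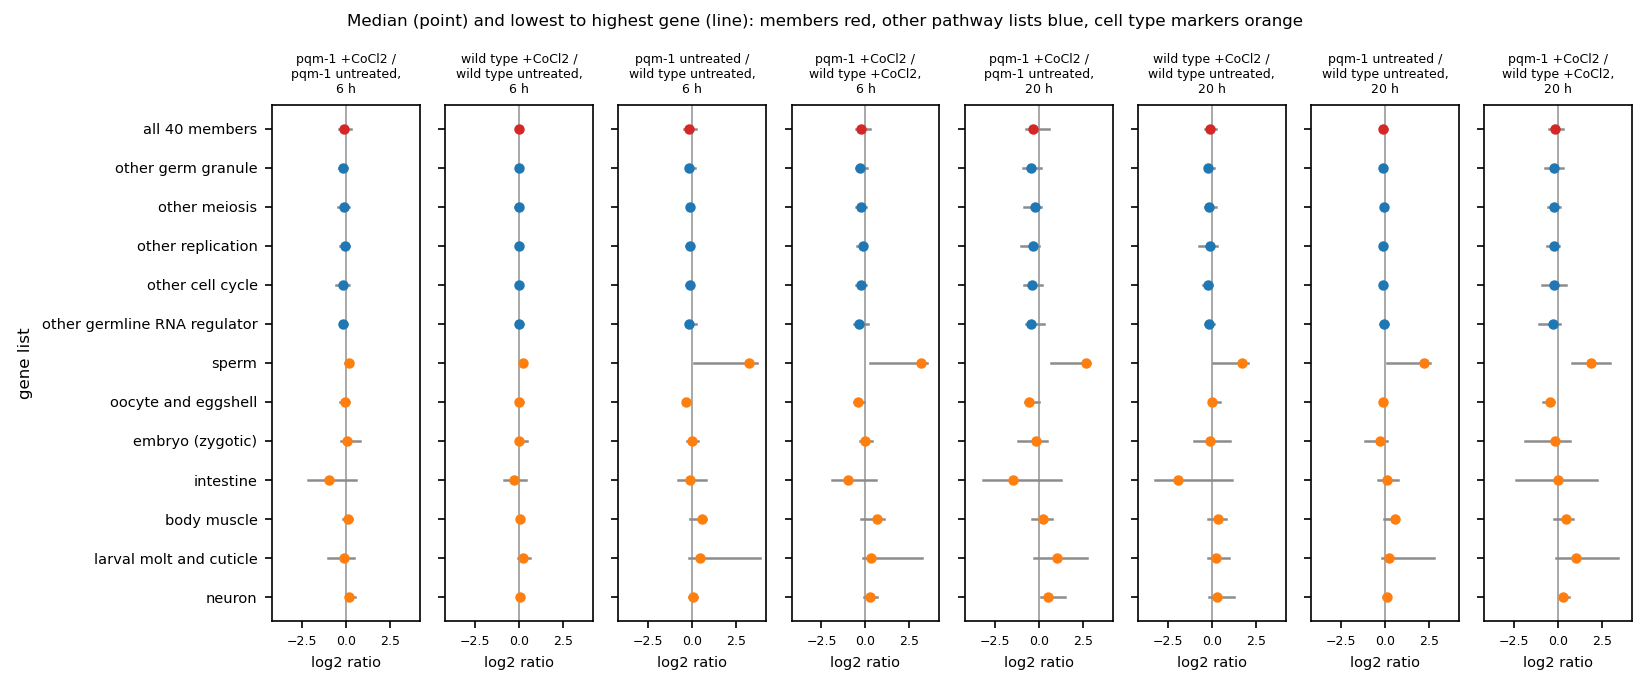
Median log2 ratio of gene lists in the 8 comparisons, with a line from the lowest to the highest gene of each list, for the members (red), the other genes of the same pathways (blue) and cell type markers (orange). At 6 h the sperm list stands at 3.15 between the treated and 3.21 between the untreated strains, where the members stand at -0.27 and -0.18.

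Somatic markers moved as well. Body muscle genes were higher in *pqm-1(ok485)* for 10 of 12 with CoCl2 (median 0.68) and 8 of 12 without (median 0.57) at 6 h, and larval molt and cuticle genes for 9 of 19 with CoCl2 (median 0.31) and 10 of 19 without (median 0.43). At 6 h intestine genes were lower for 7 of 12 and higher for 4 between the treated strains (median -0.97), and lower for 9 of 12 and higher for 3 in the CoCl2 response of the mutant (median -0.97). Larval molt and cuticle genes were higher for 15 of 18 in the response of the mutant at 20 h and for 14 of 18 between the treated strains at 20 h (median 1.03 in each), against 3 of 18 in the response of wild type (median 0.23). Intestine genes were lower with CoCl2 at 20 h for 9 of 12 in the mutant (median -1.47) and 8 of 12 in wild type (median -1.89), and neuron genes were higher for 11 of 12 in the mutant and 6 of 12 in wild type. The genes of zygotic embryos were lower for 8 of 20 and higher for 2 between the treated strains at 20 h. Their part in the members' values was not tested.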

How the data were processed

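The 24 arrays (Agilent 4x44K, Cy3 and Cy5) were deposited as scanner output, in which the Feature Extraction software (version 12.0.2.2 per the file headers) gives the median signal and background intensities of each channel and its own processed log10 ratio. The authors also deposited a table of log2 ratios for the same arrays. Here median intensities were background-corrected with normexp (offset 50) and normalized within arrays by loess in limma 3.58.1 (R 4.3.3). Each ratio was turned by the strain and treatment fields. These differ from the dyes in the source names on 11 arrays, but they match the direction of the series table on 24 of 24 and give positive correlations between all replicates over the kept probes. With the source names 16 of 24 replicate pairs correlated below 0, and these dyes were an alternative. Of 43603 probes, 34513 were matched to genes through RefSeq annotation.

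Spots of a probe and probes of a gene were averaged. A probe was kept for a time if 1 of its channels or both exceeded background throughout the 3 arrays of some comparison, and a gene needed values on 2 or more arrays per comparison. A missing array value was left out of the fit, as for *pgl-1* and *him-3* in the response of wild type at 20 h (replicate 3). For each time the 12 arrays were fitted together with a mean for each comparison (residual degrees of freedom, 8), with p-values adjusted by Benjamini-Hochberg over all genes tested and a threshold of 0.01. Differences between times came from a fit of all 24 arrays. The strain difference at 6 h was the ratio between the treated strains minus that between the untreated strains, and at 20 h the response of the mutant minus that of wild type. Arrays labeled 1b were taken as replicate 1, and the labels call replicates biological. Each kind of RNA entered 2 of the 4 comparisons of a time, so comparisons share groups and were not correlated with each other. The 7 slides held arrays of 1 or 2 comparisons each, so slide and comparison cannot be fully told apart, but each array holds both RNAs of its ratio. The wild-type response arrays at 20 h lay on different slides. That of replicate 3 shared its slide with the arrays between the untreated strains at 20 h.

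The members and gene lists were chosen with earlier results of these data known. By rule, array values were given for the 3 largest rises and falls past the threshold in each comparison and for the largest member of each role group, and of the other pathway genes the 3 largest rises and falls past the threshold were named. Array values of other members were chosen after their values were seen. Alternatives were the offset, median centering, the scanner's log ratio, the series table, the filter, single probes, only the arrays compared, a dye term, slide and replicate blocks, a threshold of 0.05, a loop model (each group against untreated wild type), the second way to form the strain difference, the dyes, SAM, saturated spots left out and each array left out. The scripts were tested on simulated data. Coordinates and sequences were not used here.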

Additional observations from a re-analysis of the deposited data

Results flagged for a closer look

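The results below are differences between the effects at 20 h and at 6 h that passed the test of the difference itself (adjusted p below 0.01 over the genes tested at both times, limma). In treated against untreated *pqm-1(ok485)* mutants the log2 ratio was lower at 20 h than at 6 h by a difference of -0.62 for *rnr-2*, -0.55 for *cyb-1*, -0.54 for *rnr-1* and -0.42 for *mcm-4*. In treated mutants against treated wild type it was higher at 20 h than at 6 h by 0.41 for *him-17* and 0.40 for *htp-1*. The calls of *rnr-1* and *him-17* were lost without any 1 of the 6 arrays compared.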

How the results depend on the processing

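Each count of members called was recomputed under every alternative, and the counts not given below stayed within 1.5 times those of the report (at 6 h 13 between the treated and 4 between the untreated strains, at 20 h 16 in the CoCl2 response of the mutant, 1 in that of wild type and 6 between the treated strains, and for 20 h minus 6 h 4 in the response of the mutant and 2 between the treated strains, with 0 in all other comparisons). The cause of the shifts was not tested, except that a fit on fewer arrays has fewer degrees of freedom. The share of all genes called under each alternative is not given here or above. A count of members that rose or fell under an alternative therefore cannot be set against that share. At an adjusted p of 0.05, 4 members were called in the response of the mutant, 21 between the treated and 13 between the untreated strains at 6 h, 26 in the response of the mutant, 5 in that of wild type and 14 between the treated strains at 20 h, 4 in the strain difference of the response at 20 h, and 10 (mutant) and 1 (wild type) in the response at 20 h minus 6 h. With normexp at offset 0 the counts were 7 between the treated and 1 between the untreated strains at 6 h, 0 in the response of wild type and 2 between the treated strains at 20 h, and for 20 h minus 6 h 2 in the response of the mutant and 0 between the treated strains. With median centering they were 0 in both strain comparisons at 6 h, 9 in the response of the mutant and 0 between the treated strains at 20 h, and 0 in both of these differences between the times. The log ratio of the scanner software gave the same counts as the series table of the authors, namely 0 in the response of wild type at 20 h, and for 20 h minus 6 h 2 in the response of the mutant and 0 between the treated strains. Both moved the median of all genes by -0.11 between the untreated strains at 6 h and by -0.17 in the response of the mutant at 20 h. The strict filter gave 2 in the response of wild type and 1 in the strain difference of the response at 20 h, and 1 between the treated strains at 20 h minus 6 h. Testing each probe alone gave these same 3 counts and 10 between the treated strains at 20 h.

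When a fit held just the arrays being compared, 5 members were called between the treated and 0 between the untreated strains at 6 h, 7 in the response of the mutant, 0 in that of wild type, 2 between the treated and 1 between the untreated strains at 20 h, and 0 in both differences between the times. A dye term gave 1 in the response of the mutant and 10 between the untreated strains at 6 h, and 2 in the response of wild type and 1 in the strain difference at 20 h. Slide as a random block gave 3 in the response of the mutant, 26 between the treated and 19 between the untreated strains and 2 in the strain difference at 6 h, 2 between the treated strains at 20 h, and 0 between the treated strains at 20 h minus 6 h. The loop model gave 2 in the response of the mutant, 20 between the treated and 9 between the untreated strains at 6 h, 4 in the response of wild type, 11 between the treated strains and 4 in the strain difference at 20 h, and 1 in the response of wild type at 20 h minus 6 h. Forming the strain difference from the other comparisons gave 2 in the strain difference at 20 h. SAM gave 3 between the treated and 0 between the untreated strains at 6 h, 0 in the response of wild type and 15 between the treated strains at 20 h, and for 20 h minus 6 h 0 in the response of the mutant and 5 between the treated strains. With the dyes of the source names, 0 members were called in all 14 comparisons and differences. Under those dyes the ratio between the treated strains had the opposite sign for *mcm-2* (0.19), *mcm-3* (0.19) and *oma-2* (0.20) at 6 h, for *him-8* (0.25), *htp-1* (-0.11), *mex-3* (0.28) and *oma-2* (0.33) at 20 h, and for *him-17* (-0.052) and *htp-1* (-0.15) at 20 h minus 6 h.

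Leaving out 1 array at a time gave 0 to 1 calls in the response of the mutant, 2 to 10 between the treated and 0 to 4 between the untreated strains at 6 h, and 10 to 14 in the response of the mutant and 1 to 5 between the treated strains at 20 h. The strain difference of the response ranged over 0 to 1 at each time, and the differences between the times over 1 to 6 (response of the mutant) and 0 to 1 (treated strains). Same-numbered arrays deviated together with r of -0.67 to 0.41 at 6 h and -0.34 to 0.42 at 20 h, not above 0.1 for every pair. At 6 h the sign was positive in all 6 values of the pairs of comparisons with the same dye orders, which share an RNA on the same side of the ratio. Pairs with opposite dye orders and no shared RNA were negative at 6 h. These were -0.21, -0.33 and -0.59 for the responses of wild type and mutant, and -0.32, -0.42 and -0.67 for the untreated and treated strains. The part of the dyes in this was not tested. At 20 h the sign was mixed, so whether the numbers pair the arrays was not settled. With the replicate block 7 members were called between the treated and 1 between the untreated strains at 6 h, 2 in the response of wild type at 20 h and 1 between the treated strains at 20 h minus 6 h. Of the 20 gene results named by rule, the dye term and the loop model kept all 20 calls, normexp at offset 0 and SAM each kept 12, only the arrays compared 7 and median centering 3. Leaving out saturated spots, an alternative chosen after seeing the data, kept 19. With 3 arrays per comparison the number of arrays limits the precision.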
